A study of Mus musculus with 6 samples.

Results

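The 7 genes described here, Zscan4c, Zscan4d, Zscan4f, Zfp352, Tcstv1, Tcstv3 and Gm8300, are transcribed in the mouse 2-cell embryo and in the 2-cell-like state of embryonic stem cells (ESCs). They were taken by gene name, with no value used to pick the rows, and all 7 are among the 13743 rows of the deposited expression table, each on a single row. The RNA came from Dgcr8-/- mouse ESCs of the C57/129 strain background, so every group, the control included, lacks Dgcr8, which is needed to make canonical microRNAs. Cells were transfected with miR-294 mimic, with siRNA against Mbd2 (siMbd2) or as CTR, and RNA was taken 48 h later, with 2 libraries for each of the 3 groups. The labels give 50 nM for mimics and siRNAs and do not say what the CTR cells received; the table calls them mock. Nor do they say whether the 2 libraries of a group came from separate cultures, so the p-values below measure only the spread between these libraries, which may be technical.

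In ESC cultures a small and changing fraction of cells passes through the 2-cell-like state, in which genes of the first wave of embryonic transcription are expressed for a short time. The state is known to be driven by the transcription factor Dux and held back by chromatin repressors. Zscan4c, Zscan4d and Zscan4f encode nearly identical proteins with a SCAN domain and zinc fingers that act in telomere maintenance. The Zscan4 genes are the most used markers of the state. Zfp352 encodes a zinc finger protein, and Tcstv1 and Tcstv3 belong to a group named for variable expression at the 2-cell stage. Gm8300 is given here under its model name. miR-294 is a member of the miR-290 cluster, which makes up most of the microRNA of wild-type mouse ESCs. Mbd2 encodes a protein that binds methylated CpG and recruits the NuRD repressor.

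The transfected microRNA is shown with its seed, bases 2 to 8, in capitals, because the seed is the part that pairs with a target. The sequence is from RefSeq (GRCm38.p6, chr7:3220691-3220712, plus strand).
mmu-miR-294-3p: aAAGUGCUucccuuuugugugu
None of the 7 genes has a match to this seed (AGCACTT, or GCACTTA, which overlaps it in the 8-base AGCACTTA; transcript strand only) in its longest annotated 3' UTR in GENCODE vM21. The same held for 78.1% of the 10816 tested genes with a 3' UTR, so a lack of matches did not set the members apart.

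The region around the transcription start, from 250 bases before it to 50 bases after it, was available for 4 of the 7 genes. Sequences of 3 of them are printed because they show what members of one family share and how the non-family member differs. The Zscan4c promoter (chr7:11005495-11005794, plus strand) and the Zscan4d promoter (chr7:11166099-11166398, minus strand) are shown with TATAAA in capitals. In the Zfp352 promoter (chr4:90218570-90218869, plus strand) the capitals mark GGACAACACAC. All are from RefSeq, build GRCm38.p6.
Zscan4c: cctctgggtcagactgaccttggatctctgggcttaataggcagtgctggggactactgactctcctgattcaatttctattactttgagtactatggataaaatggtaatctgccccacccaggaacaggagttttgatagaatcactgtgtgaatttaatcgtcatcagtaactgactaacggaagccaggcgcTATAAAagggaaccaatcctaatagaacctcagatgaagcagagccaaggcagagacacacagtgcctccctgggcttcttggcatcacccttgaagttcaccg
Zscan4d: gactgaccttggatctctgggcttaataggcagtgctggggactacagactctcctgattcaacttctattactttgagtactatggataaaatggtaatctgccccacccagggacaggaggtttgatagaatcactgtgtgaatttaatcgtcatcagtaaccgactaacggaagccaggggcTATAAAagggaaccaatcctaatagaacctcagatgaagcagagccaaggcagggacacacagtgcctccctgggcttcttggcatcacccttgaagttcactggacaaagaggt
Zfp352: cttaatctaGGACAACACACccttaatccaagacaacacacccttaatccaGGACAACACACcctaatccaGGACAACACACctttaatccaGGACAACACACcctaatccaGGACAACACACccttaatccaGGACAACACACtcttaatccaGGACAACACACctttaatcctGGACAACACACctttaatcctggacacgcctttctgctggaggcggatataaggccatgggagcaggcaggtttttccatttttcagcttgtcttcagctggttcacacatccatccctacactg
TATAAA began 54 bases before the annotated start in Zscan4c, 65 bases before it in Zscan4d and 31 bases before it in Zscan4f. Searched on both strands, TATAAA occurred in 13.6% of 32851 promoters. Over all aligned columns the Zscan4c promoter was 90.4% identical to that of Zscan4d (281 of 311 columns). It was 85.1% identical to that of Zscan4f (275 of 323), and those of Zscan4f and Zscan4d were 77.5% identical (259 of 334). The columns include unpaired ends, because the windows are offset from each other. These values therefore understate the likeness of the overlapping parts and do not rank the pairs. For Zfp352 the value was 46.1% to 48.5% against them, and none was computed for unrelated promoters. GGACAACACAC, a repeated motif picked from the Zfp352 sequence itself, occurred there 8 times and in 1 of the 32851 promoters on either strand, that of Zfp352 itself. The letters TGCACAC, the core of a motif bound by ZSCAN4, and GATTNAATC, the core of a DUX motif, occurred in 4.40% and 0.268% of promoters on either strand and in 0 of the 4 members. Of the 18 promoters found for the wider list of 2-cell-like genes described below, 2 held GATTNAATC, those of Gm4340 and AF067061, and none held TGCACAC.

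The genes lie in 4 places in GRCm38, the assembly also called mm10. Zscan4c (chr7:11005745-11010547, plus strand), Zscan4d (chr7:11161374-11166159, minus strand) and Zscan4f (chr7:11397915-11402318, plus strand) stand in one cluster on chromosome 7. Tcstv1 (chr13:119893388-119894785, minus strand) and Tcstv3 (chr13:120316878-120318178, plus strand) are on chromosome 13. Gm8300 (chr12:87514316-87518266, plus strand) is on chromosome 12, which also carries Gm5662, Gm2016, Gm4027, Gm5039 and Gm21319 of the wider list described below. Zfp352 (chr4:90218820-90225702, plus strand) is on chromosome 4.

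Several of the genes are near-identical copies, and a read that fits more than one copy can be counted to any of them; the rule by which the authors divided such reads is not known. Of the distinct 50-base stretches of its GENCODE transcripts, Zscan4f shared 86.8% with some other gene and Zscan4c 85.5%. Zscan4f and Zscan4c overlapped most with each other among genes that have a row, 74.3% of the stretches of Zscan4f and 65.3% of those of Zscan4c. The share was 49.6% for Zscan4d, 31.4% for Tcstv3, 26.6% for Gm8300, 15.0% for Tcstv1 and 7.09% for Zfp352. Values for Zscan4c and Zscan4f are therefore uncertain as values of single genes, and the sum over the Zscan4 rows is given beside them. The rows used were, by line of the deposited table, 13725 for Zscan4c, 13726 for Zscan4d, 13728 for Zscan4f, 13396 for Zfp352, 11704 for Tcstv1, 11705 for Tcstv3 and 5005 for Gm8300.

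**Figure D1:**
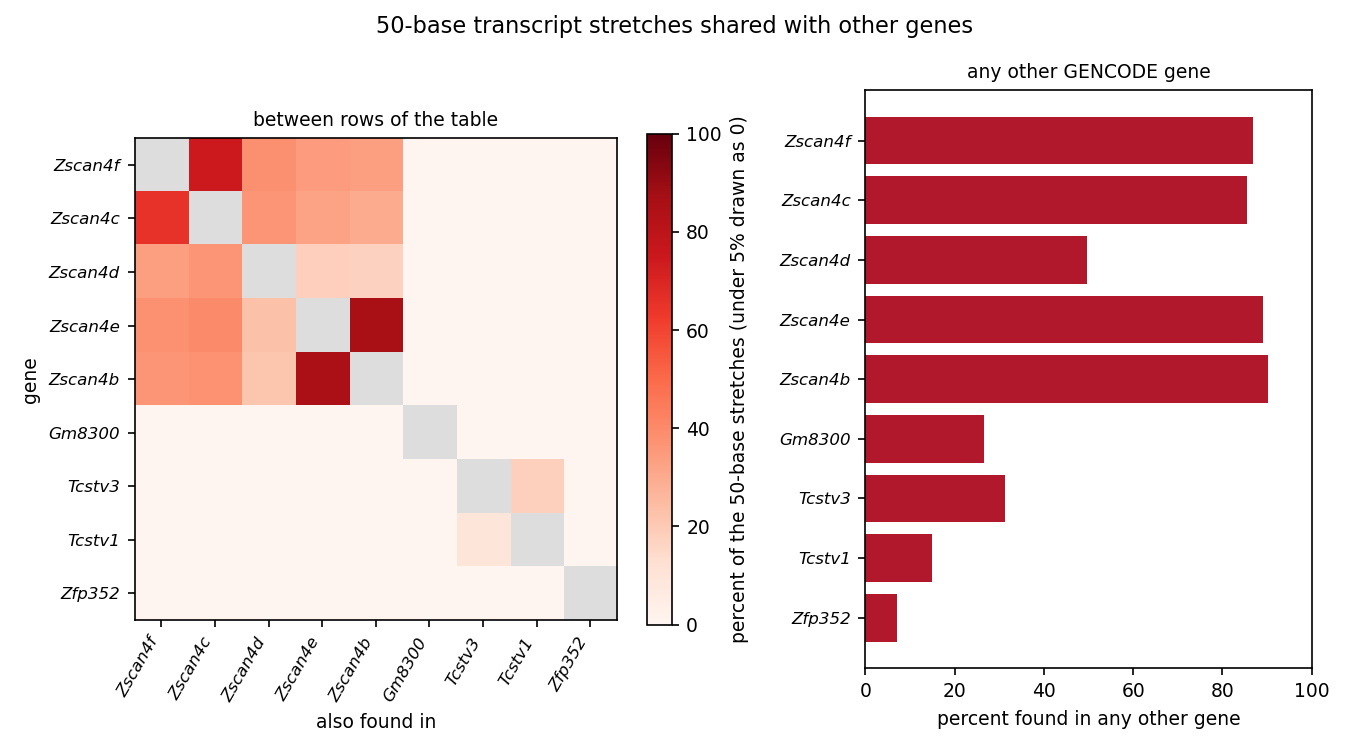
Left, percent of the distinct 50-base transcript stretches of each gene (rows) that also occur in another gene of the table (columns). Right, percent that occur in any other GENCODE gene, from 7.09% for Zfp352 to 86.8% for Zscan4f among the 7 genes, with Zscan4e and Zscan4b added as further family members.

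Values are RPKM, reads scaled to transcript length and library size, and the read depth behind them is unknown. Mbd2 RPKM was 11.3 and 12.3 in miR-294 libraries, 7.33 and 6.34 in siMbd2 libraries and 26.8 and 27.9 in CTR libraries, so the knockdown target was lowest in the libraries labelled siMbd2. The ESC marker Pou5f1 was between 689 and 1059 RPKM in all 6 libraries. A test was made on log2(RPKM + 1) in one limma fit of the 3 groups over the 11428 genes that averaged 1 RPKM or more across the 6 libraries, and a gene is said to have risen or fallen where its Benjamini-Hochberg adjusted p was under 0.05. Differences on this scale understate the change of genes at low RPKM. With 2 libraries on each side the smallest p of an exact permutation test is 0.333, so each call rests on the spread that limma shares across genes. Of 8 ESC markers, 3 rose and 2 fell in miR-294 against CTR (27.7% and 36.8% of all tested genes). In siMbd2 against CTR 4 rose and 2 fell (19.5% and 14.9%). Pou5f1 rose in both (0.52 and 0.33), and Nanog (-0.80 and -0.33) and Sox2 (-0.51 and -0.42) fell in both. Nanog had 206 and 211 RPKM in miR-294 libraries and 354 and 372 RPKM in CTR libraries.

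The genes were transcribed at widely differing levels on the RPKM scale, which is per transcript length. In miR-294 libraries Zscan4f (12.7 RPKM) and Zscan4d (12.4 RPKM) were highest, with overlapping libraries, followed by Zscan4c (7.06), Gm8300 (6.51), Tcstv3 (4.28), Tcstv1 (3.69) and Zfp352 (1.86), none of which overlapped the next. In siMbd2 libraries Zscan4d (10.7) and Zscan4f (10.3) overlapped, as did Tcstv3 (2.62) and Gm8300 (2.24). In CTR libraries Zscan4f (10.1), Zscan4d (8.34) and Zscan4c (5.25) were separate from each other, whereas Gm8300 (2.44), Tcstv3 (2.33) and Tcstv1 (2.23) overlapped. Zfp352 was the lowest of the 7 in each group, at 0.635 RPKM in siMbd2 and 0.535 RPKM in CTR. Gm8300 stood above Tcstv3 and Tcstv1 in every miR-294 library and among them in CTR.

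**Figure D2:**
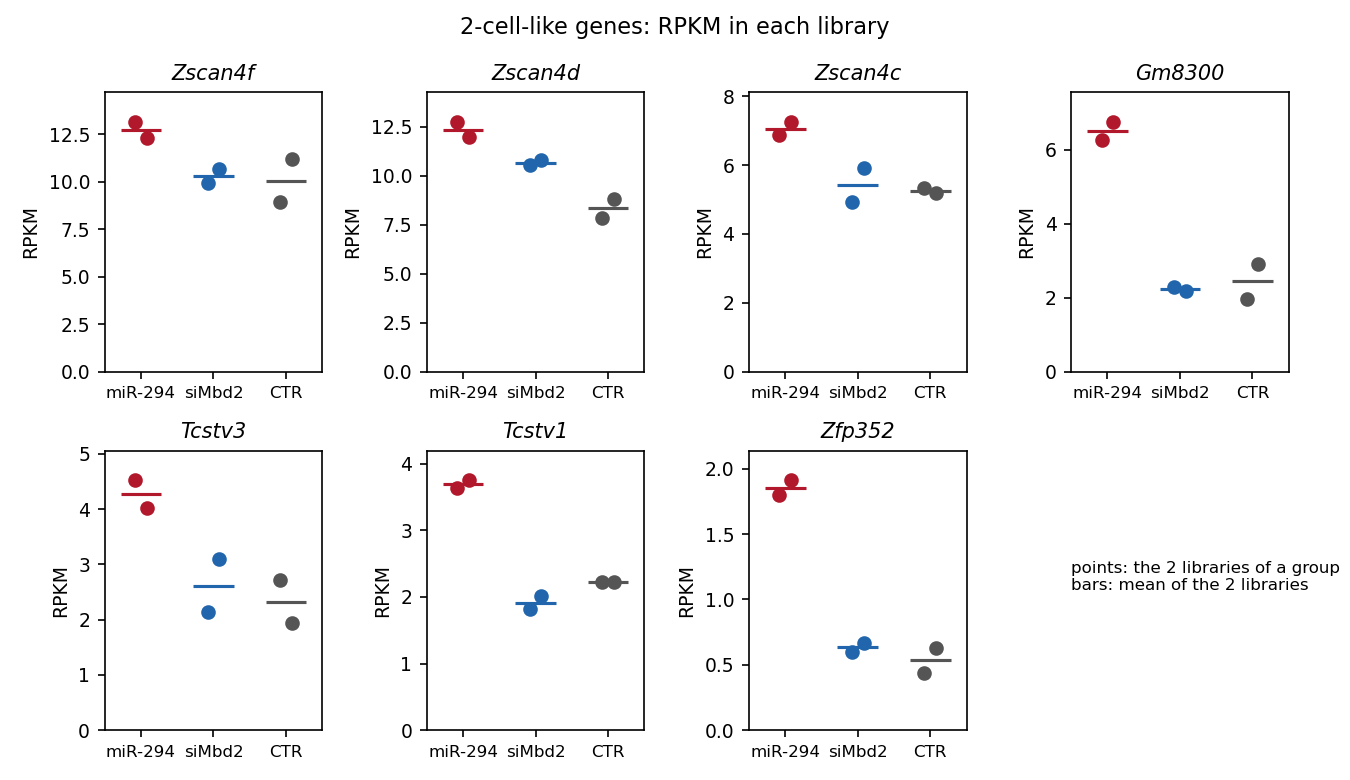
RPKM (vertical axes, each from 0) of the 7 genes in the miR-294, siMbd2 and CTR libraries; points are the 2 libraries of a group and bars their mean. For each gene both miR-294 points lie above all other points, as for Gm8300 at 6.26 and 6.75 RPKM.

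The first question is how these genes responded when Dgcr8-/- ESCs received miR-294. All 7 rose, and in all 7 both miR-294 libraries lay above both CTR libraries. Of all tested genes, 27.7% rose, and 35.0% had both miR-294 libraries above both CTR libraries. Zfp352 passed the minimum only through its miR-294 libraries. Without a minimum all 7 rose as well, against 26.1% of all 13742 genes then tested. The median log2 difference was 0.54 over the 7 genes and -0.08 over all tested genes. In this bulk RNA more cells in the state and more RNA per cell cannot be told apart.

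On the log2(RPKM + 1) scale Gm8300 had the largest difference of the 7, while the ratio of mean RPKM was larger for Zfp352. Gm8300 had 6.26 and 6.75 RPKM in miR-294 libraries and 1.97 and 2.91 RPKM in CTR libraries. Both miR-294 values were well above the higher CTR value, with a ratio of means of 2.67. The log2 difference was 1.14 (SE 0.130, limma adjusted p = 1.05e-04), larger than that of 98.8% of tested genes.

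Zfp352, the zinc finger gene, was the least abundant of the 7. Zfp352 had 1.80 and 1.91 RPKM in miR-294 libraries and 0.44 and 0.63 RPKM in CTR libraries. The groups were well apart, with a ratio of means of 3.47 and a log2 difference of 0.90 (SE 0.0993, limma adjusted p = 8.96e-05). Its mean over the 6 libraries, 1.01 RPKM, passed the minimum only through the miR-294 libraries, since the other 4 averaged 0.585 RPKM. With a pseudocount of 0.1 in place of 1 its log2 difference was 1.64.

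Both Tcstv genes rose. Tcstv1 had 3.63 and 3.75 RPKM in miR-294 libraries and 2.23 and 2.22 RPKM in CTR libraries, and the replicates of each group nearly coincided. Its log2 difference was 0.54 (SE 0.0876, limma adjusted p = 7.41e-04). Tcstv3 had 4.52 and 4.03 RPKM in miR-294 libraries and 2.71 and 1.94 RPKM in CTR libraries. Its replicates were further apart than those of Tcstv1, but the groups did not overlap, and the log2 difference was 0.67 (SE 0.154, limma adjusted p = 0.00477).

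The 3 Zscan4 genes rose by 0.32 to 0.52 on the log2 scale; whether this was less than for the other members was not tested. Zscan4d had 12.75 and 11.98 RPKM in miR-294 libraries and 7.84 and 8.84 RPKM in CTR libraries, with a log2 difference of 0.52 (SE 0.0832, limma adjusted p = 6.98e-04). Zscan4c had 6.87 and 7.25 RPKM in miR-294 libraries and 5.32 and 5.18 RPKM in CTR libraries, with a log2 difference of 0.37 (SE 0.0967, limma adjusted p = 0.00968). These 2 genes had groups clear of each other, while Zscan4f came closer. Zscan4f had 13.15 and 12.28 RPKM in miR-294 libraries and 8.92 and 11.21 RPKM in CTR libraries, with a log2 difference of 0.32 (SE 0.106, limma adjusted p = 0.0280). Its second CTR library lay nearer to the miR-294 libraries than to the first CTR library.

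The calls of Zscan4f and Zscan4c depended on single libraries. Without the first CTR library the log2 difference of Zscan4f was 0.17 (limma adjusted p = 0.0941), without the first miR-294 library 0.27 (limma adjusted p = 0.144) and without the second 0.36 (limma adjusted p = 0.0634). Without the second miR-294 library that of Zscan4c was 0.33 (limma adjusted p = 0.0686). Quantile normalization gave larger differences, 0.48 for Zscan4f and 0.58 for Zscan4c.

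Because reads can move between copies, the 5 Zscan4 rows (Zscan4b, Zscan4c, Zscan4d, Zscan4e and Zscan4f) were also summed, a choice made after seeing the data. The sum was 41.5 and 40.4 RPKM in miR-294 libraries, 32.8 and 34.8 RPKM in siMbd2 libraries and 28.7 and 32.0 RPKM in CTR libraries. The miR-294 libraries stood clear of the others, and the lowest siMbd2 value was close to the highest CTR value. In a fit with summed rows the family rose in miR-294 against CTR (log2 difference 0.42, limma adjusted p = 9.32e-04). The 2 family rows that are not members differed from each other: Zscan4e rose (log2 difference 0.49, limma adjusted p = 8.89e-04), and Zscan4b had 2.08 and 2.53 RPKM in miR-294 libraries against 2.26 and 2.54 RPKM in CTR libraries. Zscan4b shares 85.3% of its 50-base stretches with Zscan4e, and Zscan4e 85.8% with Zscan4b. Their values are therefore also uncertain as values of single genes, and so is the difference between them.

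Set against the Zscan4 sum, Gm8300, Zfp352 and Tcstv1 were proportionally more abundant in miR-294. Gm8300 amounted to 15.1% and 16.7% of the Zscan4 sum in miR-294 libraries, 6.94% and 6.29% in siMbd2 libraries and 6.87% and 9.08% in CTR libraries. Zfp352 amounted to 4.34% and 4.73% in miR-294 libraries, 1.83% and 1.92% in siMbd2 libraries and 1.53% and 1.97% in CTR libraries. Tcstv1 amounted to 8.75% and 9.29% in miR-294 libraries, 5.54% and 5.77% in siMbd2 libraries and 7.77% and 6.93% in CTR libraries. The miR-294 libraries were the highest for these 3 genes and did not overlap the others. The share of all tested genes with such a pattern was not computed, so it is not shown to be particular to them. For Tcstv3 the percentage was 10.9% and 9.99% in miR-294 libraries, 6.49% and 8.91% in siMbd2 libraries and 9.45% and 6.05% in CTR libraries, a gap from CTR smaller than the spread of the CTR pair. These percentages were not tested.

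The second question is whether knockdown of Mbd2 moved the same genes. Of the 7 genes, 1 rose and none fell by the limma test at an adjusted p under 0.05, against 19.5% of all tested genes that rose and 14.9% that fell. At an unadjusted p under 0.05 the count was the same 1 gene. The median log2 difference was 0.04 over the 7 genes and 0.02 over all tested genes. In 5 of the 7 genes the siMbd2 and CTR libraries overlapped, as in 32.4% of tested genes. In 1 both siMbd2 libraries were above both CTR libraries (37.0% of tested genes) and in 1 both were below (30.6%).

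Zscan4d was the gene that rose. Zscan4d had 10.54 and 10.81 RPKM in siMbd2 libraries and 7.84 and 8.84 RPKM in CTR libraries, with no overlap. Its log2 difference was 0.32 (SE 0.0832, limma adjusted p = 0.0183). The call was lost without either siMbd2 library (limma adjusted p = 0.0890 and 0.129), and in the fit with summed copies the Zscan4 family did not pass the threshold (log2 difference 0.15, 95% interval -0.01 to 0.31, limma adjusted p = 0.129).

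The other members lay near their CTR values. Gm8300 had 2.28 and 2.19 RPKM in siMbd2 libraries and 1.97 and 2.91 RPKM in CTR libraries. Both siMbd2 values lay between the CTR values, and the 95% interval of the log2 difference was -0.37 to 0.22. Tcstv1 had 1.82 and 2.01 RPKM in siMbd2 libraries and 2.23 and 2.22 RPKM in CTR libraries. Here both siMbd2 libraries were the lower ones, with a log2 difference of -0.15 and a 95% interval of -0.35 to 0.05. Zfp352 had 0.60 and 0.67 RPKM in siMbd2 libraries and 0.44 and 0.63 RPKM in CTR libraries, an overlapping pair of ranges with a 95% interval of -0.13 to 0.32.

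Zscan4c, Zscan4f and Tcstv3 overlapped as well. Zscan4c had 4.92 and 5.90 RPKM in siMbd2 libraries and 5.32 and 5.18 RPKM in CTR libraries. Zscan4f had 9.95 and 10.69 RPKM in siMbd2 libraries and 8.92 and 11.21 RPKM in CTR libraries. Tcstv3 had 2.13 and 3.10 RPKM in siMbd2 libraries and 2.71 and 1.94 RPKM in CTR libraries. In these 3 genes the spread within a group was as large as the difference between groups, and the 95% intervals of their log2 differences all included 0. The widest, that of Tcstv3, ran from -0.24 to 0.47, which leaves room for a change of that size in either direction.

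Both treatments were compared with the same CTR libraries, so their differences from CTR share that spread. The direct comparison of miR-294 with siMbd2 does not use the CTR values for its difference. In it all 7 genes had both miR-294 libraries above both siMbd2 libraries, as did 34.5% of tested genes, and 5 of the 7 were called higher, against 21.9% of tested genes. Without a minimum the count was also 5 of 7, against 21.3% of all genes then tested. The median log2 difference was 0.56 over the 7 genes and -0.08 over all tested genes.

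The log2 difference between miR-294 and siMbd2 was 1.21 for Gm8300 (SE 0.130, limma adjusted p = 1.12e-04), 0.80 for Zfp352 (SE 0.0993, limma adjusted p = 2.33e-04) and 0.69 for Tcstv1 (SE 0.0876, limma adjusted p = 2.75e-04). It was 0.56 for Tcstv3 (SE 0.154, limma adjusted p = 0.0140) and 0.33 for Zscan4c (SE 0.0967, limma adjusted p = 0.0171). Only 52 tested genes exceeded Gm8300 in this comparison. Zscan4f (0.28, limma adjusted p = 0.0521) and Zscan4d (0.19, limma adjusted p = 0.0753) did not pass the threshold. Their 95% intervals were 0.03 to 0.52 and 0.00 to 0.38.

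Scaling and single libraries decided several of these calls. With quantile normalization, which put the median of all tested genes at 0.03 in place of -0.08, Zscan4f (0.45, limma adjusted p = 0.0149) and Zscan4d (0.37, limma adjusted p = 0.00846) were called higher. Zscan4c lost its call without either miR-294 library or without the first siMbd2 library, and Tcstv3 lost it without the first miR-294 or the first siMbd2 library. The summed Zscan4 family was higher in miR-294 than in siMbd2 (log2 difference 0.27, limma adjusted p = 0.0114).

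**Figure D3:**
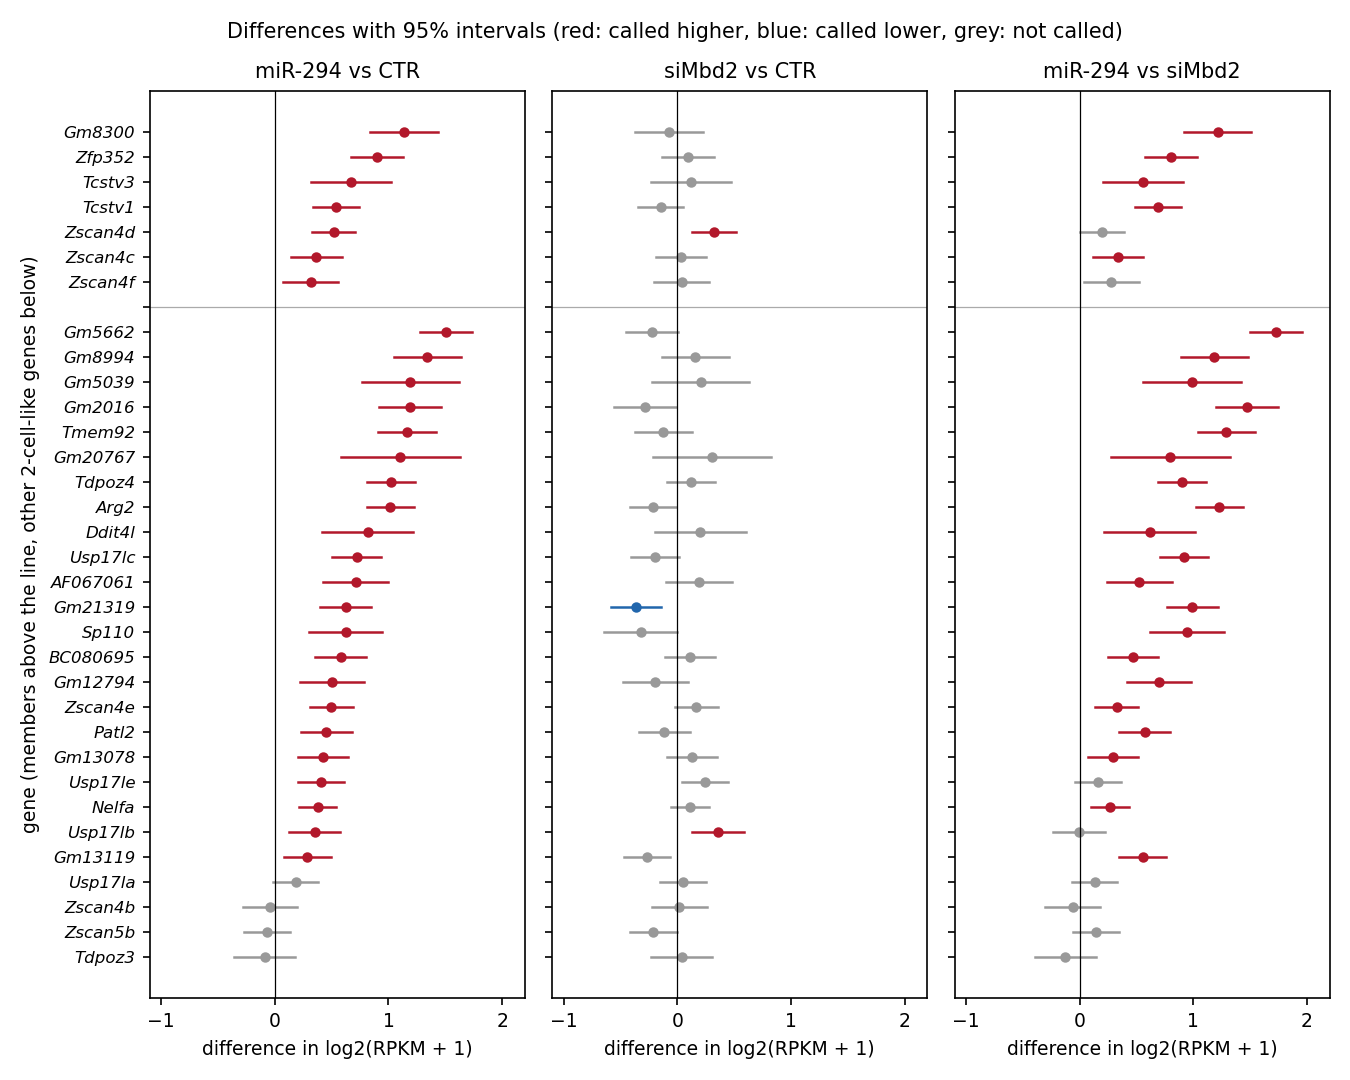
Differences in log2(RPKM + 1) with 95% intervals for the 7 members (above the line) and 26 other 2-cell-like genes in the 3 comparisons, coloured by call. The 7 members are all to the right of 0 in miR-294 vs CTR, from 0.32 for Zscan4f to 1.14 for Gm8300, and 1 of them, Zscan4d, is called in siMbd2 vs CTR.

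**Figure D4:**
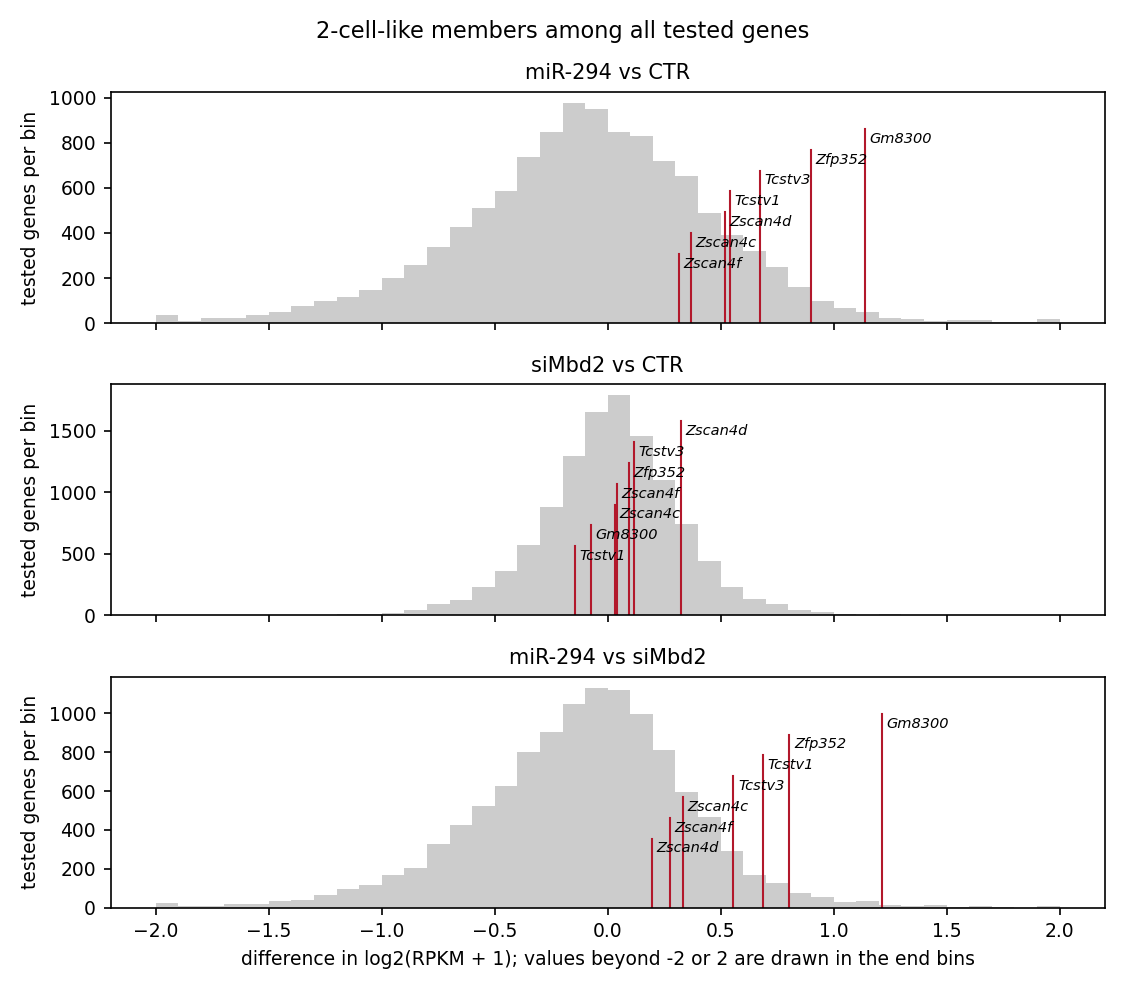
Histograms of the log2(RPKM + 1) differences of all 11428 tested genes in each comparison, with the 7 members as vertical lines; line heights are staggered for the labels and carry no value. In miR-294 vs CTR the members lie between 0.32 and 1.14, in siMbd2 vs CTR between -0.15 and 0.32.

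A wider list of genes of the same state was described in the same way. Of its 66 symbols, older names included, 37 had a row and 26 passed the minimum. Dux and Zscan4a were among the symbols without a row, so no value can be given for them. In miR-294 against CTR, 22 of the 26 rose and none fell by the limma test, against 27.7% and 36.8% of all tested genes. None was lower at an unadjusted p under 0.05 either. Without a minimum 29 of 37 rose, against 26.1% of all 13742 genes then tested. Some of these genes are near copies of each other, as given below, so the counts are not of separate responses. The median log2 difference of the 26 was 0.60. Of the 26, 3 (Tdpoz4, Arg2 and Zscan5b) passed the minimum only through the miR-294 libraries.

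On the log2(RPKM + 1) scale the largest difference was that of Gm5662, which lies on chromosome 12 like Gm8300. Its ratio of mean RPKM was 3.26, below the 4.10 of the less abundant Tdpoz4. Gm5662 had 14.5 and 13.5 RPKM in miR-294 libraries, 3.31 and 3.74 RPKM in siMbd2 libraries and 3.92 and 4.66 RPKM in CTR libraries. Its miR-294 libraries were far above the rest, with a log2 difference from CTR of 1.51 (SE 0.101, limma adjusted p = 7.94e-06). Gm2016 (1.19), which shares 75.2% of its 50-base stretches with Gm5662, and Gm5039 (1.19), on the same chromosome, also rose. Gm21319, there too, rose in miR-294 (0.62) and was the single one of the 26 that fell in siMbd2 (-0.36, limma adjusted p = 0.0215). The member Gm8300 shares 13.3% of its 50-base stretches with Gm5662, 12.6% with Gm2016, 6.74% with Gm4027 and 6.63% with Gm5039. These rows are therefore not fully separate from that of Gm8300.

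Calls within other families were mixed. Among deubiquitinase genes of the Usp17l family, Usp17lc (0.72), Usp17le (0.41) and Usp17lb (0.35) rose, and Usp17la had a log2 difference of 0.18 that did not pass. Tdpoz4, of a family with TD and POZ domains, rose by 1.02, whereas Tdpoz3 was at -0.09. Tdpoz3 shares 66.2% of its 50-base stretches with Gm4982, which has no row, and Tdpoz4 shares 41.2% with other genes. Their values are therefore uncertain as values of single genes, and so is the difference between them. The same limit holds, among others, for Usp17lc (44.7% shared with other genes), Gm20767 (70.2%) and BC080695 (55.3%). Gm20767 (1.10) and AF067061 (0.71), which like the Tcstv genes lie on chromosome 13, rose, as did BC080695 (0.58), Gm13078 (0.42) and Gm13119 (0.29). Genes outside these families rose as well: Tmem92 (1.16), which encodes a transmembrane protein, Arg2 (1.02), a mitochondrial arginase, Ddit4l (0.82), an inhibitor of mTOR signalling, Sp110 (0.62), a nuclear body protein, Patl2 (0.45), an RNA-binding protein of oocytes, and Nelfa (0.38), a subunit of the NELF complex that pauses RNA polymerase II. Gm8994 (1.34), Gm12794 (0.50) and Zscan4e (0.49) were the remaining genes that rose. Zscan4b (-0.04) and Zscan5b (-0.07) did not pass; the signs of Zscan4b, Zscan5b and Tdpoz3 turned under quantile normalization.

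In siMbd2 against CTR 1 of the 26 rose, Usp17lb (0.36, limma adjusted p = 0.0247), and 1 fell, the Gm21319 given above, against 19.5% and 14.9% of all tested genes. Without a minimum 1 of 37 rose and 2 fell, against 16.5% and 13.5%; the second was Spz1 (-0.27, limma adjusted p = 0.0353), a transcription factor gene of the testis. In miR-294 against siMbd2 20 of the 26 were higher and none lower by the limma test, against 21.9% and 35.5% of all tested genes. None was lower at an unadjusted p under 0.05 either. The exceptions among the 26 were Usp17la, Usp17lb, Usp17le, Zscan4b, Zscan5b and Tdpoz3. Without a minimum the count was 26 of 37, against 21.3% of all genes then tested.

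Genes known to act on the state were more divided. Of 41 tested regulators, a list that mixes activators and repressors, 22 rose and 11 fell in miR-294 against CTR (27.7% and 36.8% of all tested genes), 13 rose and 2 fell in siMbd2 against CTR (19.5% and 14.9%), and 17 were higher and 14 lower in miR-294 than in siMbd2 (21.9% and 35.5%). The 15 calls in siMbd2 against CTR became 8 without the first and 5 without the second siMbd2 library, and the 31 between miR-294 and siMbd2 became 20 without the second miR-294 library. Lin28a, an RNA-binding protein, had 90.7 and 91.2 RPKM in miR-294 libraries, 10.7 and 10.9 RPKM in siMbd2 libraries and 4.42 and 5.44 RPKM in CTR libraries. The 3 groups were in separate ranges, with a log2 difference of 3.96 in miR-294 and 0.99 in siMbd2 against CTR. Myc, a transcription factor of growth, rose by 3.14 and 1.23 in the same comparisons.

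The remaining genes among the 8 with the largest calls in miR-294 against CTR moved in both directions. Smchd1, a chromatin protein that silences the inactive X chromosome and gene clusters, fell by 0.98, with 10.72 and 11.02 RPKM in miR-294 libraries and 22.0 and 22.9 RPKM in CTR libraries. Its level in siMbd2 libraries was in between, at 16.8 and 16.4 RPKM, and its fall there was also called (-0.41). Trim28 (0.82), a corepressor of retroelements, Ncl (0.77), a nucleolar protein, and L3mbtl2 (0.72), a subunit of a Polycomb complex, rose. Prdm14 (-0.75), a pluripotency regulator, and Tet3 (-0.83), which oxidises methylcytosine, fell. The SEs of these differences were 0.0598 to 0.0891.

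In siMbd2 against CTR the other large calls were Pias4 (0.46), a SUMO ligase, L3mbtl2 (0.39), Ehmt2 (0.38), a histone methyltransferase, and the chromatin assembly factor subunits Chaf1b (0.37) and Chaf1a (0.34), all of which rose. Between miR-294 and siMbd2 the large differences beside Lin28a (2.97) and Myc (1.91) were Dppa3 (0.83), a maternal factor, Trim28 (0.73), Prdm14 (-0.62), Tet3 (-0.59), Zfp42 (0.58), a pluripotency marker, and Smchd1 (-0.57).

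The members varied together across the 6 libraries to differing degrees. Pearson's r of log2(RPKM + 1), given as a description over 6 libraries in 3 groups, was 0.98 between Zfp352 and Gm8300, 0.96 between Tcstv1 and Gm8300 and lowest, 0.62, between Zscan4d and Tcstv1. Outside the lists, the 5 genes with the highest r to the mean standardized profile of the members, among 1035 whose group means span at least 1 on the log2 scale, were BC147527 (0.997), Gm15698 (0.995), Spink3 (0.992), Slc1a3 (0.990) and Lyar (0.990). Of the 1035 genes 76 had an r of at least 0.95. BC147527 had 5.66 and 5.98 RPKM in miR-294 libraries, 2.07 and 2.64 RPKM in siMbd2 libraries and 1.84 and 2.35 RPKM in CTR libraries, a high miR-294 pair over overlapping siMbd2 and CTR pairs. Spink3, which encodes a secreted protease inhibitor, had 11.5 and 10.3 RPKM in miR-294 libraries, 0.13 and 0.45 RPKM in siMbd2 libraries and 0.00 and 0.13 RPKM in CTR libraries.

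Markers of other cell types moved in the same comparison. Among germ cell markers 5 of 7 tested genes rose in miR-294 against CTR (Stra8, Dazl, Mael, Sycp1 and Sycp3), against 27.7% of all tested genes. Without a minimum 4 of 8 rose, against 26.1% of all genes then tested, and Sycp3 did not pass (limma adjusted p = 0.0556). The sum of the 8 germ cell rows was 55.6 and 57.4 RPKM in miR-294 libraries, 43.0 and 43.0 RPKM in siMbd2 libraries and 38.7 and 43.9 RPKM in CTR libraries. Ddx4, which defines germ cells, had 11.28 and 12.57 RPKM in miR-294 libraries against 13.08 and 14.55 RPKM in CTR libraries. Among primitive endoderm markers the summed 8 rows were 14.9 and 13.9 RPKM in miR-294 libraries, 8.49 and 7.95 RPKM in siMbd2 libraries and 9.08 and 7.83 RPKM in CTR libraries, with Gata4 falling and Lama1 rising. Without a minimum 4 of the 8 primitive endoderm markers rose, against 26.1% of all genes then tested, and 1 fell. The share of all genes that fell was 36.8% with the minimum and is not given without it. The others that rose were Sox7 (0.95), Gata6 (0.57) and Dab2 (0.40), each under 1 RPKM on average over the 6 libraries. Sox7 had 1.28 and 1.15 RPKM in miR-294 libraries and 0.10 and 0.20 RPKM in CTR libraries. The trophoblast sum over 7 rows was lower, 25.0 and 23.6 RPKM in miR-294 libraries, 29.4 and 28.9 RPKM in siMbd2 libraries and 36.9 and 34.4 RPKM in CTR libraries. This sum follows Tfap2c, its most abundant row in CTR, and does not describe the others. Tfap2c had 9.08 and 8.60 RPKM in miR-294 libraries and 28.4 and 26.2 RPKM in CTR libraries. Of 6 tested trophoblast markers 3 rose (Hand1, Eomes and Ascl2) and 1, Tfap2c, fell, against 27.7% and 36.8% of all tested genes. Gata3 and Krt7 did not pass, and Cdx2 (0.57) rose without a minimum. Of 8 feeder fibroblast markers 2 had a row, Thy1 and Col1a1, and their sum was 3.89 and 3.56 RPKM in miR-294 libraries, 1.15 and 1.32 RPKM in siMbd2 libraries and 1.64 and 1.53 RPKM in CTR libraries. Thy1, a surface protein, made up most of it, and rose in miR-294 (0.83, limma adjusted p = 9.20e-05) and fell in siMbd2 (-0.30, limma adjusted p = 0.0369) against CTR. Col1a1, a fibroblast collagen, was at most 0.29 RPKM in any library. No marker with a row was at 0 in all 6 libraries. The part of these cell types in the results above was not tested.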

How the data were processed

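RPKM values to 2 decimals were deposited for 13743 rows and 6 libraries; per the labels each is the average of a pair of lanes, from paired-end libraries of total RNA. The submitters' processing notes name CASAVA 1.7, STAR 2.3.0, Cufflinks and the mm10 build; the sources used here give no gene annotation. The deposited table also holds the authors' fold ratio of each treatment over CTR, which was not used for any result. Depth is unknown, so no counting error can be given. The 3 groups were fitted together on log2(RPKM + 1), limma 3.58.1 under R 4.3.3, using the trend option, which left 3 residual and 5.38 prior degrees of freedom. Genes had to average 1 RPKM or more. Tests were two-sided, with Benjamini-Hochberg adjustment over all 11428 tested genes at 0.05. The procedure was also run on simulated data. A far smaller share of genes was changed there than was called here, so that run gives no error rate for these data.

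Members, gene lists and the naming rule were chosen with earlier results of these data known. The rule names every member, every other 2-cell-like gene that passed the minimum, the 8 regulators with the largest called difference in each comparison, and the 5 genes most like the members. Alternatives were median-of-ratios and quantile scaling, a pseudocount of 0.1, no minimum, a minimum mean of 5 RPKM, each library left out, a replicate block and, added after seeing the data, summed copies. Positions, 3' UTRs and 50-base stretches are from GENCODE vM21 and promoters and the microRNA from RefSeq (GRCm38.p6), read with Python 3.11.15, pandas 2.3.3 and biopython 1.88. Plots used matplotlib 3.10.9.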

Additional observations from a re-analysis of the deposited data

How the results depend on the processing

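Of 80 values of the members under alternatives in miR-294 against CTR, 76 kept their direction and call and 4 lost the call, those given above for Zscan4f and Zscan4c. The 7 called became 5 to 7 without single libraries, 5 of 5 with copies summed, and 3 of 3 tested at a minimum mean of 5 RPKM. In siMbd2 against CTR the 1 called became 0 to 2 without single libraries and 0 with copies summed; the second was Gm8300, called lower without the first CTR library (-0.27, limma adjusted p = 0.0467). In miR-294 against siMbd2 the 5 called became 3 to 7 without single libraries (3 without the first miR-294 or the first siMbd2 library) and 2 at a minimum mean of 5 RPKM. Of the other 2-cell-like genes, 22 became 19 to 22 without single libraries and 6 at the higher minimum, 2 became 0 to 4 and 0, and 20 became 15 to 20 and 6, in the order of comparisons above (4 without the first CTR and 0 without the second siMbd2 library). The counts at the higher minimum are lower because fewer genes are tested. Of the regulators, 33 became 23 to 35, 15 became 5 to 21 and 31 became 20 to 39 without single libraries, as given above. Directions turned only in differences that did not pass the threshold. In siMbd2 against CTR, values without single libraries ran from -0.27 to 0.12 for Gm8300 (0.12 without the second CTR library), from -0.078 to 0.14 for Zscan4c (lowest without the second siMbd2 library), from -0.11 to 0.19 for Zscan4f (lowest without the first CTR library) and from -0.077 to 0.31 for Tcstv3 (lowest without the second siMbd2 library), and Zfp352 was at -0.010 with quantile scaling. In miR-294 against CTR they ran from -0.22 to 0.043 for Tdpoz3 (highest without the second CTR library) and from -0.14 to 0.055 for Zscan4b (highest without the first miR-294 library). There, quantile scaling gave 0.032 for Tdpoz3, 0.16 for Zscan4b and 0.063 for Zscan5b, and median-of-ratios scaling 0.013 for Zscan4b. The cause of these turns was not tested. Replicate numbers were not shown to pair libraries: the correlation of replicate differences was 0.12, 0.13 and 0.02 between the 3 pairs of groups. With a replicate block 7, 1 and 6 members were called in miR-294 against CTR, siMbd2 against CTR and miR-294 against siMbd2, and the sixth was Zscan4f (limma adjusted p = 0.040). With 2 libraries a group and unknown depth, small differences of genes under about 1 RPKM could not be resolved.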
